A study of Mus musculus with 21 samples.

Results

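Ventral hippocampus of ethanol-treated mice was compared between animals carrying a short hairpin RNA against Acss2 and control animals. The comparison rests on 7 of the 21 libraries of the series, chosen by their labels: ventral knockdown 2, 3 and 4 against ventral control 1, 2, 3 and 4. Ventral knockdown 1 was left out because it held 8744 gene reads, under the minimum of 1000000. Of the 24498 genes in the table, 14578 had enough reads to be tested.

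All mice were males raised to 8 weeks, and every animal of the 7 libraries received ethanol by intraperitoneal injection at 2 g/kg, as a 20% solution in saline. How long after ethanol the tissue was taken is not stated in the labels. The knockdown animals carried the vector U6.shACSS2.CMV.EGFP in AAV2/9, an adeno-associated virus that expresses the hairpin from the U6 promoter and a green fluorescent protein from the CMV promoter. The sample protocol places the injection in the dorsal hippocampus, not in the ventral tissue measured here, although the series' own design wording leaves room for a systemic one. A vector for the control animals is not described, so hairpin, virus, fluorescent protein and surgery cannot be told apart as sources of a difference. Whether each replicate is its own animal is not stated, and the p-values therefore reflect library-to-library spread, which may be technical.

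ACSS2 joins acetate to coenzyme A and so makes acetyl-CoA, the donor of the acetyl groups that histone acetyltransferases place on histones. The liver breaks ethanol down to acetate, which reaches the brain with the blood. The ventral hippocampus is the part of the hippocampus tied most closely to emotion and stress. Its CA1, CA3 and dentate neurons differ in many transcripts from those of the dorsal part, and it borders the lateral ventricle with its ependymal lining and choroid plexus.

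Gene reads ranged from 3503465 to 10634142 over the 7 libraries, and genes took 57.4% to 81.0% of uniquely aligned reads. Rn45s, the ribosomal RNA precursor, took 0.625% to 17.4% of gene reads, the highest share in ventral knockdown 4. Levels are counts per 1000000 gene reads (CPM) after TMM scaling, a correction for library composition. A list score is the mean log2 CPM of a list's tested genes, relative to their mean over the 7 libraries. The libraries carry no molecular identifiers, and floors cover counting error only. An interval given with an SE comes from the fitted model and also reflects the spread between libraries.

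Several libraries stood apart from the rest of their own group, most of them in marker genes of particular tissues or cell types. Ventral control 4 had a choroid plexus score of 5.28 against -1.56 to 1.00 in the other 6 libraries. Its level of Ttr, the thyroid hormone carrier that defines choroid plexus epithelium, was 14483 CPM against 16.1 to 560.4 CPM elsewhere. The same library had the highest ependymal score, 2.20, and the highest score of mature oligodendrocytes, 1.33. Ventral control 3 had the highest dentate granule score, 1.78, and the lowest CA1 score, -1.77. Ventral control 1 had the highest score of ventral hippocampus markers, 1.31, with Dcn, a matrix proteoglycan, at 317.6 CPM against 4.25 to 75.3 CPM, and Trhr, a receptor for thyrotropin-releasing hormone, at 42.7 CPM.

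The knockdown libraries were no more alike. Ventral knockdown 3 had the lowest subiculum score, -1.92, and the lowest ventral marker score, -1.75. It also held the most Lefty1, an inhibitor of Nodal signalling, at 32.6 CPM against 1.39 to 7.37 CPM in the others, and the most Hpca, a neuronal calcium sensor, at 3341 CPM against 398.9 to 1169 CPM. Ventral knockdown 4 had the highest meningeal fibroblast score, 1.92, with Fmod, a matrix proteoglycan, at 114 CPM, and the lowest dentate score, -1.53. Ventral knockdown 2 held the most Npy, a neuropeptide of interneurons, at 852.6 CPM against 17.6 to 270.2 CPM. In bulk RNA, fewer cells of a type and less RNA per cell cannot be told apart. The labelled region was checked with 12 markers of ventral hippocampus: their scores were -1.75 to 1.31 in the ventral libraries and -1.36 to 1.15 in the dorsal ones, so the ranges overlapped and this list did not separate the regions.

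**Figure D1:**
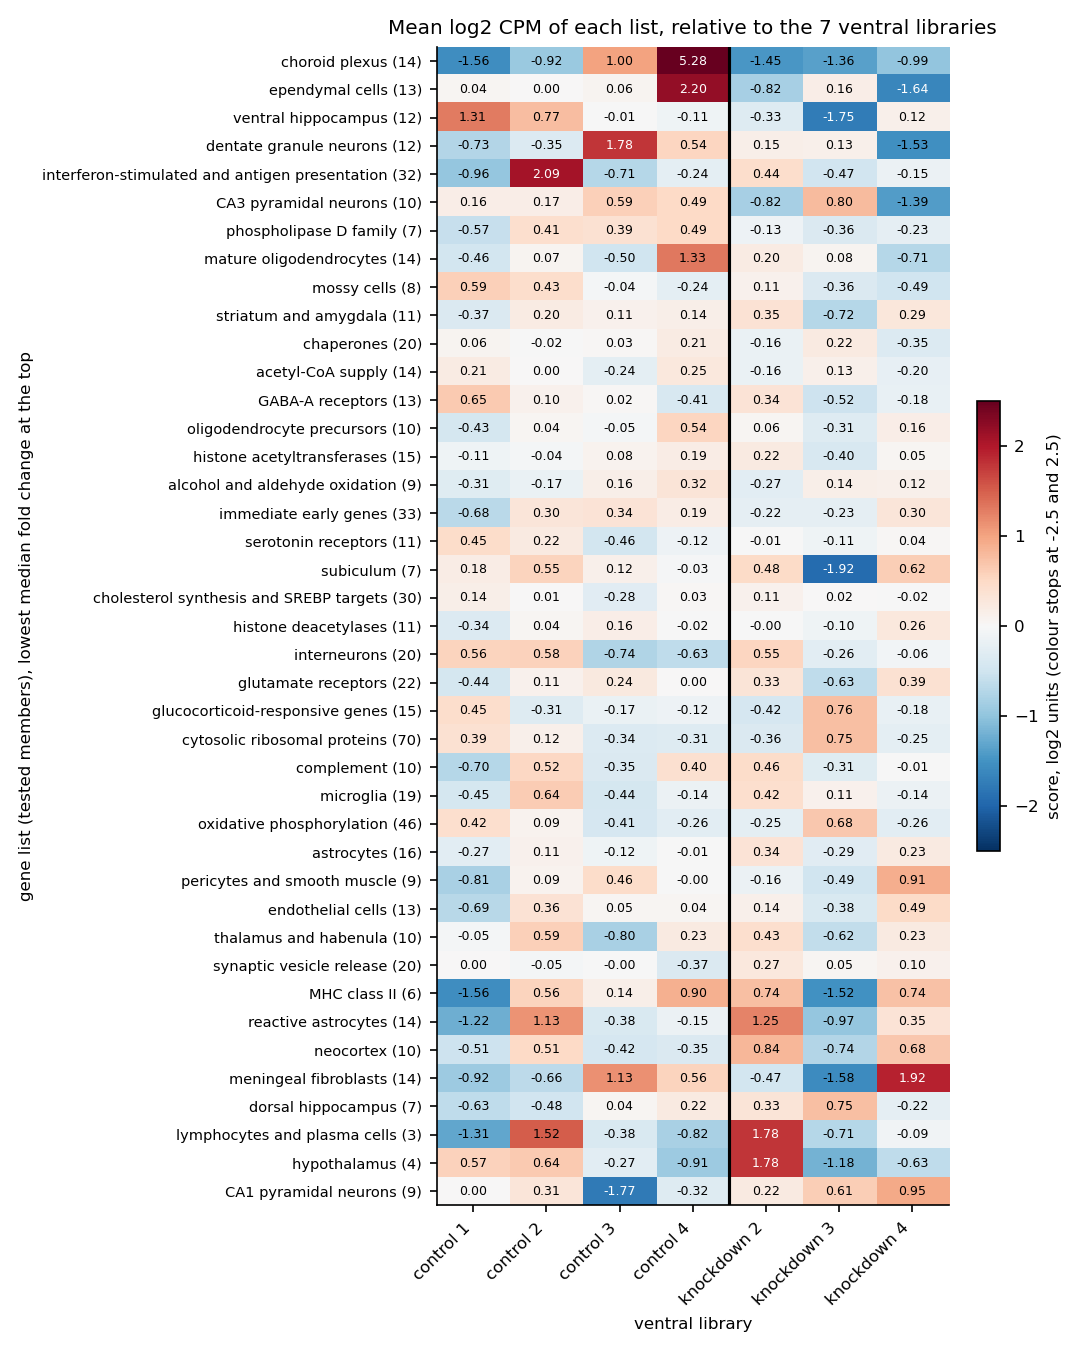
Score of each gene list (rows, with the number of tested genes) in each of the 7 ventral libraries (columns), in log2 units relative to the mean of the 7, with the controls left of the black line. Ventral control 4 stands out in the choroid plexus (5.28) and ependymal (2.20) lists and ventral control 2 in the interferon list (2.09).

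Ventral control 2 stood apart in interferon-stimulated genes, with a list score of 2.09 (summed level 1568 CPM) against -0.96 to 0.44 in the other 6 libraries. Cxcl10, a chemokine that draws T cells, was at 113.6 CPM there and at 0 to 5.19 CPM in the others. Isg15, a ubiquitin-like protein made in response to interferon, was at 41.4 CPM against 0.54 to 2.22 CPM. Ifit1, which binds viral RNA, was at 70.6 CPM against 1.56 to 9.02 CPM. The promoters of these 3 genes are shown as examples with a motif match among the 8 genes farthest above the rest in that library. Of the 7 of those 8 with a RefSeq promoter, 4 held a match (57.1%), while Ifi44, Irf7 and Oasl2 held 0. RefSeq places the following 250 bases just before each transcription start, on the gene's strand, with the build GRCm38.p6. Capitals mark matches to GAAANNGAAA on either strand (TTTCNNTTTC on the other), the core spacing of the interferon-stimulated response element.
Isg15, chr4:156200819-156201068, minus strand: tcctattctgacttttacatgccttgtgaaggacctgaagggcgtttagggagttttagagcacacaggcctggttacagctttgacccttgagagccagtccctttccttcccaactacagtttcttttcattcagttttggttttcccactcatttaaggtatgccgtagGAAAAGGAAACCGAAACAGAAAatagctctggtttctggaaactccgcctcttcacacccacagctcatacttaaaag
Ifit1, chr19:34640639-34640888, plus strand: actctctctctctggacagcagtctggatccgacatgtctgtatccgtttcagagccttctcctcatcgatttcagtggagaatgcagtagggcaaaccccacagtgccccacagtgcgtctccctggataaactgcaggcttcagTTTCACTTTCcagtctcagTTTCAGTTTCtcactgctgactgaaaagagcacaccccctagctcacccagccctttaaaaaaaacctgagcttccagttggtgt
Cxcl10, chr5:92348890-92349139, minus strand: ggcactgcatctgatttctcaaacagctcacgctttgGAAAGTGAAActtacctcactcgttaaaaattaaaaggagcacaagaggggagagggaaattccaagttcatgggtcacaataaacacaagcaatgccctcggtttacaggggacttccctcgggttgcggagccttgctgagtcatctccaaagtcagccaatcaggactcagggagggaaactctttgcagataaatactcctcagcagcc

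The run in Isg15 holds 3 overlapping matches, Ifit1 holds 2 and Cxcl10 holds 1. Of all 27025 genes with a promoter in the RefSeq table, 3.46% held a match in the same window of any of their promoters. Of the 11126 tested genes found in that table the share was 3.09%. Of the interferon list, 26 of 32 genes were in the table and 11 held a match. A match describes letters only and was not tested as a binding site.

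Acss2, the targeted gene (ENSMUSG00000027605.18, protein coding, mm10 chr2:155517948-155585724, plus strand), was at 28.9, 63.6 and 36.7 CPM in ventral knockdown 2, 3 and 4. It was at 50.3, 54.2, 47.5 and 48.2 CPM in ventral control 1 to 4. Ventral knockdown 2 and 4 lay below all controls and ventral knockdown 3 lay above all of them, so the groups overlapped. The knockdown mean of 43.1 ± 18.2 CPM (SD, n = 3) was 86.0% of the control mean of 50.05 ± 3.03 CPM (SD, n = 4). The log2 fold change, knockdown minus control throughout, was -0.21 (SE 0.32; 95% interval -0.91 to 0.48).

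That difference of Acss2 did not pass edgeR's quasi-likelihood test with Benjamini-Hochberg adjustment over all tested genes (adjusted p = 1.00). An exact two-sided permutation test over the 7 libraries gave p = 0.343, where the smallest p its 35 splits allow is 0.0286. Without ventral knockdown 3 the log2 fold change was -0.60, and without ventral knockdown 2 it was 0.01, next to 0. Its size thus rested on single libraries. Ventral knockdown 1 had 0 Acss2 reads, which at its depth allows up to 343.1 CPM and is no check. In the dorsal libraries, where the sample protocol places the vector, Acss2 was at 18.0 to 44.3 CPM in knockdown and 52.9 to 58.7 CPM in control (log2 fold change -0.84, SE 0.32). The ventral and dorsal differences were not distinguished by the interaction test (0.63, SE 0.46; edgeR adjusted p = 1.00). A loss of Acss2 transcript was thus not detectable over the 3 ventral knockdown libraries, and every difference below is between libraries labelled knockdown and control.

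Other genes of acetyl-CoA supply lay close between the groups. Of 14 tested members, 3 were higher and 11 lower in knockdown, with a median log2 fold change of -0.11 against -0.01 over all tested genes, and 0.10 without ventral control 1. None of the 14 passed an unadjusted p of 0.05 in edgeR. Acly, which makes acetyl-CoA from citrate in the cytosol, was at 118 to 137 CPM in knockdown and 118.1 to 164.2 CPM in control (-0.15, SE 0.19). Acss1, the mitochondrial acetate enzyme, was at 29.8 to 34.0 CPM and 25.5 to 44.7 CPM (0.03, SE 0.21). Crat, carnitine acetyltransferase, was at 43.1 to 63.0 CPM and 45.3 to 50.4 CPM (0.18, SE 0.17). Acss3, another mitochondrial short-chain synthetase, had the lowest value of the list: it was at 0.83 to 2.22 CPM and 1.45 to 9.56 CPM (-1.27, SE 0.61), with its highest level in ventral control 4. Slc33a1, which carries acetyl-CoA into the endoplasmic reticulum, was at 15.6 to 30.9 CPM and 22.3 to 41.1 CPM (-0.44, SE 0.31).

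Across all genes, edgeR called 0 of 14578 genes at an adjusted p under 0.05, a share of 0%. At an unadjusted p under 0.05 there were 593 genes, 4.07% of those tested: 234 (1.61%) were higher and 359 (2.46%) lower in knockdown. In 153 genes (1.05%) all 3 knockdown libraries lay above all 4 controls, and in 238 (1.63%) they lay below. DESeq2 on the same 14 libraries called 35 genes (0.241% of the 14548 with an adjusted p; 652 at an unadjusted p under 0.05), 4 higher and 31 lower, and 23 of the 35 did not overlap between groups. With 20 libraries and 6 group means in the fit, or with ventral knockdown 1 added, edgeR called 1 gene, Pld5. With the RLE scaling, without the low-count filter and with only the 7 ventral libraries it called 0.

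Pld5 was the gene with the smallest p. It encodes a member of the phospholipase D family that lacks the conserved catalytic residues (ENSMUSG00000055214.15, protein coding, mm10 chr1:175962306-176275312, minus strand). Its level was 2.22, 0.83 and 2.08 CPM in ventral knockdown 2, 3 and 4. In ventral control 1 to 4 it was 5.25, 20.7, 23.3 and 22.9 CPM. The groups did not overlap, with ventral control 1 nearest to the knockdown libraries. Its log2 fold change was -3.40 (SE 0.50; edgeR adjusted p = 0.0971, unadjusted p = 6.66e-06). Its adjusted p-values under the other edgeR and DESeq2 settings ran from 5.16e-08 with DESeq2 to 1.00 with only the 7 ventral libraries.

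The 7 tested phospholipase D genes had 3 higher and 4 lower, with a median of -0.39, and -0.02 without ventral control 4. Pld3, a lysosomal member that degrades single-stranded nucleic acids, was at 420.9 to 573.8 CPM in knockdown and 315.2 to 430.8 CPM in control (0.43, SE 0.21; edgeR adjusted p = 1.00). In the dorsal libraries Pld5 was low in both arms, at 2.62 to 3.48 CPM in knockdown and 2.38 to 3.30 CPM in control (0.07, SE 0.47). The 3 ventral knockdown libraries thus lay below the dorsal range, and the 4 ventral controls were the high libraries.

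**Figure D2:**
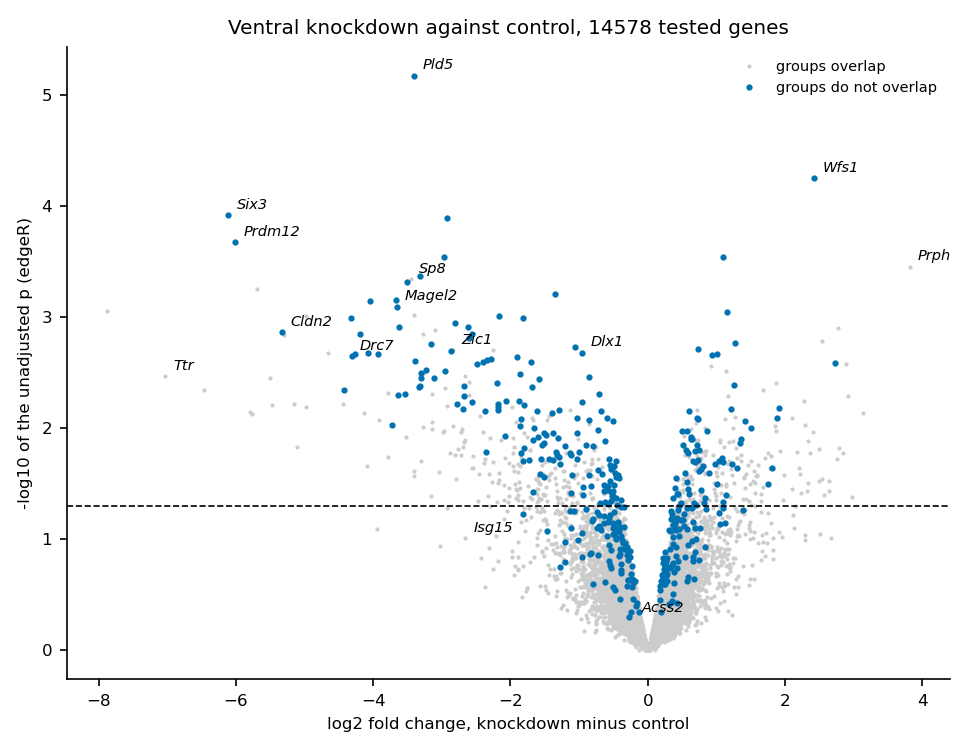
Log2 fold change (x, knockdown minus control) against -log10 of the unadjusted edgeR p (y) for the 14578 tested genes. Blue points are genes whose 3 knockdown and 4 control libraries do not overlap, and the dashed line is an unadjusted p of 0.05. Pld5 has the smallest p, 6.66e-06, at a log2 fold change of -3.40.

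Among non-overlapping genes with an unadjusted p under 0.05 and a mean of at least 5 CPM, 46 were eligible to be named as higher. Wfs1, an endoplasmic reticulum protein that marks CA1 pyramidal neurons (ENSMUSG00000039474.13, mm10 chr5:36966104-36989205, minus strand), had the highest fold change. It was at 262.9, 175.3 and 624.6 CPM in ventral knockdown 2, 3 and 4. It was at 34.9, 78.3, 52.1 and 98.6 CPM in ventral control 1 to 4. Every knockdown library lay above every control, and ventral knockdown 4 was the highest. On the log2 scale the difference was 2.42 (SE 0.43; edgeR adjusted p = 0.403), and 1.74 without ventral knockdown 4. DESeq2 called it (adjusted p = 0.000239).

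A further 10 of the 12 highest genes had log2 fold changes of 0.89 to 1.92. Amn, a part of the receptor for vitamin B12 uptake, was at 4.20, 4.46 and 19.4 CPM in knockdown and 0.66 to 3.84 CPM in control (1.92, SE 0.60). Its fold change was 0.81 without ventral knockdown 4. Paqr6, a membrane receptor for progesterone, was at 8.15, 10.6 and 12.8 CPM against 4.35 to 5.43 CPM (1.15, SE 0.28). Wnt10a, a Wnt ligand, was at 7.47 to 11.0 CPM against 2.53 to 6.14 CPM (1.31, SE 0.51). E2f1, a transcription factor of the cell cycle, was at 8.82 to 12.1 CPM against 2.17 to 6.32 CPM (1.04, SE 0.40). Fxyd7, which modulates the sodium pump, was at 33.2 to 79.6 CPM against 19.2 to 32.2 CPM (1.26, SE 0.37).
Another 5 were Efcab6, Necab3, Hkdc1, Sh2d3c and Dmp1, with log2 fold changes of 1.42, 1.10, 0.99, 0.93 and 0.89. Of the 12 highest genes, 7 had their highest level in ventral knockdown 4, the library with most Rn45s and the highest meningeal score. The part of that library in their difference was not tested beyond leaving it out.

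Among the lower genes, 79 were eligible, and the 12 lowest had log2 fold changes of -5.33 to -2.57. Most are genes of motile cilia or of the choroid plexus, and 9 of the 12 had their highest level in ventral control 4. Cldn2, the pore-forming claudin of choroid plexus tight junctions, was at 0.37, 0.31 and 0.52 CPM in ventral knockdown 2, 3 and 4. It was at 1.99, 1.28, 2.03 and 60.8 CPM in ventral control 1 to 4. Every control lay above every knockdown library, and ventral control 4 lay far above the other 3 controls. Its log2 fold change was -5.33 (SE 1.35; edgeR adjusted p = 0.634), and -2.12 without ventral control 4.

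Drc7, a subunit of the dynein regulatory complex of motile cilia, was at 0.99, 2.18 and 0.73 CPM in knockdown and 2.53, 2.56, 7.71 and 90.9 CPM in ventral control 1 to 4. Its log2 fold change was -4.31 (SE 1.16), and -1.74 without ventral control 4. Dnah6 and Dnah11, heavy chains of ciliary dynein, had -3.63 and -3.39, and -1.75 and -1.68 without that library. Crocc2, a rootletin-like protein, had -3.67, and -2.47 without it. Lrrc23, Ak7 and Cfap43, all proteins of the ciliary axoneme, had -3.15, -2.95 and -2.57. All 12 lowest genes stayed at an unadjusted p under 0.05 in edgeR without ventral control 4, with fold changes nearer to 0 for the cilia genes.

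Magel2 and Baiap3 were lower without that dependence. Magel2, an imprinted gene of the Prader-Willi region expressed from the paternal copy (ENSMUSG00000056972.6, mm10 chr7:62377010-62381640, plus strand), was at 0.99, 1.04 and 1.66 CPM in knockdown. In ventral control 1 to 4 it was at 3.26, 15.6, 27.8 and 16.1 CPM. Ventral control 1 was again the control nearest to the knockdown libraries. On the log2 scale the difference was -3.66 (SE 0.87; edgeR adjusted p = 0.634), and -3.65 without ventral control 4. Baiap3, which acts in exocytosis of dense-core vesicles, was at 1.73 to 7.59 CPM in knockdown and 11.8, 33.0, 86.3 and 28.7 CPM in control (-3.31, SE 0.95). Ano2, a calcium-gated chloride channel, was at 0.93 to 3.43 CPM and 5.79 to 18.4 CPM (-2.60, SE 0.67).

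**Figure D3:**
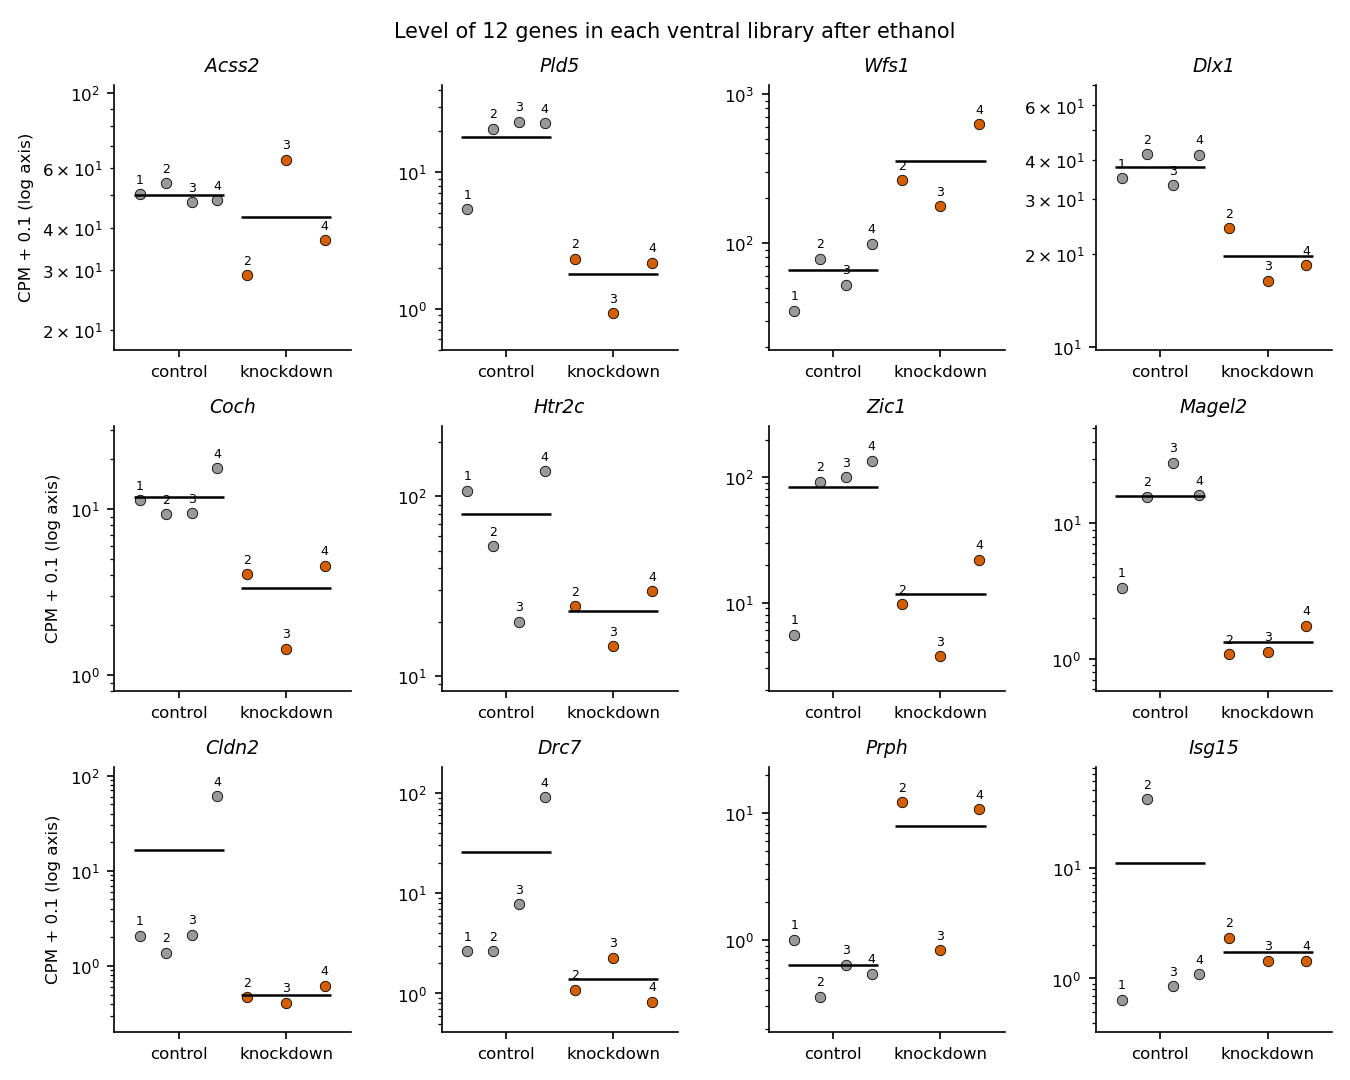
Level of 12 genes in each ventral library, as CPM + 0.1 on a log axis; numbers are the replicate numbers and bars the group means. Pld5, Wfs1, Dlx1, Coch, Magel2, Cldn2 and Drc7 do not overlap between groups, while ventral control 1 lies with the knockdown libraries for Zic1 and ventral control 2 carries the control mean of Isg15.

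Ventral control 1 was near the knockdown libraries in a further group of genes. Without it edgeR called 8 genes (0.0549% of the 14580 then tested), all lower in knockdown. All 8 were among the 35 that DESeq2 called with that library included, but DESeq2 used the same counts and is no separate support. The 8 were Pld5, Sp8, Six3, Zic1, Six3os1, Slc14a2, A230065H16Rik and Prdm12. Six3, Six3os1, Slc14a2 and Prdm12 fell below the mean of 5 CPM that the naming rule asked for and were chosen after their values were seen. Six3, Six3os1, Prdm12 and A230065H16Rik were at most at 0.73 CPM in ventral knockdown and also low in the dorsal libraries. They had enough reads to be tested only through the ventral controls, so a call could hardly go the other way.

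Zic1, a zinc finger factor of the developing septum and other midline tissue (ENSMUSG00000032368.14, mm10 chr9:91358058-91365810, minus strand), was at 9.64, 3.63 and 21.8 CPM in ventral knockdown 2, 3 and 4. In ventral control 1 to 4 it was at 5.43, 92.1, 100.5 and 135.3 CPM. Ventral control 1 lay among the knockdown libraries and the other 3 controls lay far above them. The log2 fold change was -2.83 with all libraries (SE 0.75; edgeR adjusted p = 0.646) and -3.22 without ventral control 1 (edgeR adjusted p = 0.0185). Sp8, a zinc finger factor of forebrain interneurons, was also high in ventral control 2, 3 and 4 only: it was at 0.86, 0.62 and 1.04 CPM in knockdown and 0.36, 12.5, 11.99 and 12.4 CPM in control. With all libraries the Sp8 groups overlapped, and its log2 fold change was -3.45 (SE 0.76; edgeR adjusted p = 0.634). Its edgeR adjusted p was 0.000439 without ventral control 1, the 1 control that lay with the knockdown libraries.

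Six3, a homeobox factor of the forebrain, was at 0, 0.21 and 0.10 CPM in knockdown and 0.36, 5.37, 12.6 and 15.3 CPM in control. Prdm12, a factor of developing sensory neurons, was at 0, 0.21 and 0 CPM and 0.36, 5.88, 6.53 and 9.56 CPM. For both genes ventral control 1 lay close to the knockdown libraries, and among the 7 ventral libraries only ventral control 2, 3 and 4 were above 1 CPM. Six3os1 lies opposite Six3, with their spans overlapping in the mm10 annotation, and since the strand setting of the counting is not given, reads of the pair cannot be told apart. In the dorsal libraries Zic1 was at 5.55 to 7.86 CPM in knockdown and 11.3 to 12.5 CPM in control, and Sp8 was at 0.57 to 1.21 CPM and 0.89 to 1.14 CPM. The dorsal levels thus lay near those of the ventral knockdown libraries, and ventral control 2, 3 and 4 were the high ones. Dlx1, a homeobox gene of forebrain interneurons, was lower in all 3 knockdown libraries, at 16.3 to 24.1 CPM against 33.1 to 41.7 CPM (-0.95, SE 0.25; edgeR adjusted p = 0.646).

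Prph, the type III neuronal intermediate filament peripherin, had the highest fold change of all tested genes, but its groups overlapped. It was at 12.1, 0.73 and 10.6 CPM in ventral knockdown 2, 3 and 4 and 0.90, 0.26, 0.54 and 0.44 CPM in ventral control 1 to 4. Ventral knockdown 2 and 4 were high and ventral knockdown 3 lay with the controls. Its log2 fold change was 3.81 (SE 0.82; edgeR adjusted p = 0.634; DESeq2 adjusted p = 0.00441). Cux2, a factor of upper cortical layers, was also higher in ventral knockdown 2 and 4 than in ventral knockdown 3, at 54.4, 11.6 and 136.7 CPM against 6.69 to 33.3 CPM (1.65, SE 0.73), and 0.62 without ventral knockdown 4. The neocortex list as a whole had 7 of 10 genes higher and a median of 0.32, with scores of 0.84, -0.74 and 0.68 in ventral knockdown 2, 3 and 4.

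Markers of the hippocampal fields had list scores that overlapped between the groups. CA1 markers had 8 of 9 genes higher in knockdown and a median log2 fold change of 0.96, against 48.2% higher and a median of -0.01 over all tested genes. Mpped1, a CA1 marker, was at 187.8, 134.3 and 323.2 CPM in knockdown and 160.2, 154.3, 24.9 and 53.5 CPM in control (1.14, SE 0.48), with ventral control 3 the lowest. The list median ran from 0.35 without ventral knockdown 3 to 1.39 without ventral control 1. The summed level, which weighs high genes such as Wfs1 more, did not overlap. It was 733 to 1381 CPM in knockdown and 174 to 701 CPM in control. Wfs1 alone gave 175.3 to 624.6 CPM of it in knockdown and 34.9 to 98.6 CPM in control. The sums of the remaining CA1 genes overlapped between the groups. In edgeR 3 of the 9 genes were higher at an unadjusted p under 0.05, against 1.61% of all tested genes. Wfs1 and Mpped1 were among them, and 0 passed after adjustment.

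Markers of ventral hippocampus had 10 of 12 genes lower in knockdown, with a median of -1.24, against 51.8% lower over all tested genes. Of the 12, 4 were lower at an unadjusted p under 0.05, against 2.46% of all tested genes. Coch, cochlin, was at 3.95, 1.35 and 4.47 CPM in ventral knockdown 2, 3 and 4 and at 11.2, 9.21, 9.31 and 17.5 CPM in ventral control 1 to 4. Its groups did not overlap (-1.86, SE 0.53; edgeR adjusted p = 0.712). Htr2c, a serotonin receptor, was at 24.3, 14.6 and 29.6 CPM and 107.8, 53.0, 20.0 and 138.5 CPM (-1.80, SE 0.62). Ventral control 3 lay among the knockdown libraries for Htr2c. Its highest level was in ventral control 4, the library with the high choroid plexus score, and its fold change was -1.38 without that library. Calb2, calretinin of mossy cells and interneurons, was at 39.7, 6.43 and 9.66 CPM and 89.0, 81.4, 32.5 and 96.7 CPM (-2.01, SE 0.90). Lypd1, a modulator of nicotinic receptors, was at 37.3, 112.1 and 55.9 CPM and 174.5, 120.0, 149.3 and 85.5 CPM (-0.95, SE 0.39). The list median was nearest to 0, at -0.68, without ventral control 1. The summed level of the list was 437 to 860 CPM in knockdown and 639 to 1311 CPM in control, so the groups overlapped. Markers of dorsal hippocampus, Wfs1 among them, had 5 of 7 genes higher and a median of 0.37. Their summed level did not overlap, at 946 to 1126 CPM in knockdown and 451 to 818 CPM in control. That sum includes Wfs1, and the sums of the remaining genes of the list overlapped. The scores of the list overlapped with Wfs1 included, at -0.22 to 0.75 and -0.63 to 0.22. In the dorsal libraries the scores were -0.67 to 0.93, so this list did not separate the regions either.

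Dentate granule markers were lower in 12 of 12 cases, with a median of -0.76 that moved to -0.13 without ventral control 3. Prox1, the factor that sets granule cell identity, was at 75.5, 24.8 and 11.2 CPM in knockdown and 26.0, 38.6, 179.0 and 55.8 CPM in control (-1.02, SE 0.71). Its value was -0.12 without ventral control 3 and -2.06 without ventral knockdown 2. Dock10, a guanine nucleotide exchange factor, was the 1 of the 12 with an unadjusted p under 0.05 in edgeR, against 4.07% of all tested genes. It was at 98.1, 67.7 and 37.3 CPM against 66.6, 95.7, 203.3 and 139.8 CPM (-0.90, SE 0.36). CA3 markers had 9 of 10 genes lower and a median of -0.44, which ran from -1.63 without ventral knockdown 3 to -0.07 without ventral knockdown 4. Bok, a BCL2-family gene of CA3, was at 18.3, 188.5 and 23.5 CPM in knockdown, so ventral knockdown 3 alone stood above the controls (22.6 to 89.7 CPM). St18, also a CA3 marker, did not overlap, at 7.59 to 31.9 CPM against 41.0 to 64.8 CPM (-1.12, SE 0.49). The markers of hippocampal fields therefore moved with single libraries as well as with the groups, and their part in the differences of other neuronal genes was not tested.

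Choroid plexus and ependymal genes were lower in knockdown, and most of the difference lay in ventral control 4. All 14 choroid plexus genes were lower in knockdown, with a median of -5.22, and 12 had an unadjusted p under 0.05, against 2.46% lower at that p over all tested genes. Their summed level was 197 to 250 CPM in knockdown, 173 to 866 CPM in ventral control 1 to 3 and 20478 CPM in ventral control 4. Otx2, the homeobox factor of choroid plexus, was at 0.25, 0.62 and 0.21 CPM in knockdown and 0.54, 2.30, 6.32 and 49.1 CPM in control (-5.29, SE 1.35; DESeq2 adjusted p = 0.00412). Clic6, an intracellular chloride channel, was at 0.49 to 2.18 CPM and 0.72, 5.12, 16.5 and 206.8 CPM (-5.50, SE 1.58). Without ventral control 4 the list median was -0.81, and Ttr, Otx2 and Clic6 had -2.86, -3.08 and -2.60.

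All 13 ependymal genes were also lower, with a median of -1.85 and 8 at an unadjusted p under 0.05, against 2.46% of all tested genes. Outside ventral control 4 the groups overlapped: ventral knockdown 3 had a score of 0.16, above ventral control 1, 2 and 3 at 0.04, 0.001 and 0.06. Foxj1, the master factor of motile cilia, was at 5.81, 8.09 and 3.53 CPM in knockdown and 2.17, 8.44, 13.8 and 68.9 CPM in control (-2.02, SE 0.87), and -0.51 without ventral control 4. Mia was the 1 non-overlapping member, while 1.63% of all tested genes lay lower without overlap. Its level was 0.49 to 0.83 CPM and 1.07 to 10.004 CPM (-2.37, SE 0.76), and its fold change was -0.95 without ventral control 4. In ventral control 1, 2 and 3 it was at only 1.27, 1.79 and 1.07 CPM, few reads in each. Rsph1, a radial spoke protein, was at 1.87 to 4.98 CPM and 2.81 to 33.9 CPM (-1.97, SE 0.73), and -0.42 without ventral control 4. The list median was -0.60 without that library. Mature oligodendrocyte genes had 13 of 14 lower and a median of -0.35, and 0.23 without ventral control 4.

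Glial and immune lists lay closer together. Microglial genes had 16 of 19 higher and a median of 0.16. Cd68, a lysosomal protein of activated microglia, was the 1 of the 19 with an unadjusted p under 0.05 in edgeR, against 4.07% of all tested genes. It was at 24.5, 6.64 and 10.6 CPM against 6.51, 9.98, 5.57 and 6.60 CPM (0.97, SE 0.41), and 0.29 without ventral knockdown 2, the high library. Astrocyte genes had 10 of 16 higher and a median of 0.17. Aldoc, the astrocytic aldolase, did not overlap, at 862.3 to 948.4 CPM against 597.2 to 830.9 CPM (0.40, SE 0.20), and Ntsr2, a neurotensin receptor of astrocytes, was at 137 to 190.4 CPM against 94.98 to 146.5 CPM (0.55, SE 0.20). Reactive astrocyte genes had 10 of 14 higher and a median of 0.26, and -0.45 without ventral knockdown 2. Cd44, a hyaluronan receptor, was at 19.4, 1.35 and 22.8 CPM and 1.50 to 7.68 CPM (1.93, SE 0.71), so ventral knockdown 3 again lay apart from the other knockdown libraries.

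Interferon-stimulated and antigen presentation genes had 28 of 32 lower and a median of -0.50, carried by ventral control 2. Isg15 was at 2.22, 1.35 and 1.35 CPM in knockdown and 0.54, 41.4, 0.75 and 0.99 CPM in control. The 3 knockdown libraries lay above 3 of the 4 controls and below ventral control 2. The Isg15 difference was -2.66 (SE 1.50) with all libraries and 1.06 without ventral control 2. The list median without that library was 0.68. None of the 32 genes passed an unadjusted p of 0.05 in edgeR. H2-D1, an MHC class I heavy chain, was at 40.5, 13.5 and 19.7 CPM and 9.77, 38.1, 11.3 and 14.95 CPM (0.43, SE 0.60).

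Meningeal fibroblast genes had 9 of 14 higher and a median of 0.37, and -1.53 without ventral knockdown 4. Endothelial genes had 8 of 13 and pericyte and smooth muscle genes 7 of 9 higher, with medians of 0.19 and 0.17. These vascular lists changed sign without ventral knockdown 4. Of 12 hypothalamic genes only 4 had enough reads to be tested, and the other 8 had at most 12 reads in any of the 7 libraries.

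Genes of neuronal activity did not separate the arms. Of 33 immediate early genes, 17 were higher and 16 lower, with a median of 0.01. Fos was at 10.3, 6.02 and 17.0 CPM in ventral knockdown 2, 3 and 4 and 6.87, 31.0, 36.3 and 17.4 CPM in ventral control 1 to 4 (-1.04, SE 1.11). Npas4, a neuron-specific activity factor, was at 8.09 to 23.7 CPM and 4.88 to 16.4 CPM (0.39, SE 1.13). Nr4a2, an orphan nuclear receptor, was the 1 of the 33 with an unadjusted p under 0.05 in edgeR, where 4.07% of all tested genes had one. It was at 91.7, 18.4 and 100.3 CPM against 19.7 to 42.9 CPM (1.35, SE 0.52). Its paralog Nr4a3 was at 38.1 to 63.4 CPM and 55.5 to 97.1 CPM (-0.74, SE 0.43). Ventral knockdown 3 lay below every control for Nr4a2, so its groups overlapped.

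Enzymes of histone acetylation and of ethanol breakdown lay near 0. Of 15 histone acetyltransferases, 6 were higher and 9 lower, with a median of -0.01 and a range of -0.48 (Kat2b) to 0.37 (Crebbp). Crebbp, the CBP coactivator, was at 152.1, 33.9 and 135.9 CPM in knockdown and 35.3, 79.1, 122.4 and 94.9 CPM in control, so its spread within each group exceeded the difference between them. Of 11 histone deacetylases, 9 were higher and 2 lower, with a median of 0.06 and a range of -0.20 (Hdac1) to 0.37 (Hdac5). Hdac11, the class IV enzyme, was at 120.9 to 260.8 CPM and 125.7 to 198.4 CPM (0.27, SE 0.26). Of 9 alcohol and aldehyde oxidation genes, 4 were higher and 5 lower, with a range of -0.19 to 0.45. Aldh2, the mitochondrial enzyme that turns acetaldehyde into acetate, was at 46.0, 109.8 and 93.8 CPM and 42.5, 57.6, 94.0 and 157.4 CPM (-0.08, SE 0.38). Aldh1a1, its cytosolic relative, was at 29.4 to 63.9 CPM and 32.9 to 52.4 CPM (0.27, SE 0.38). The classical ethanol oxidisers Adh1, Adh4, Adh7 and Cyp2e1 had too few reads to be tested.

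Synaptic lists gave small differences. Genes of synaptic vesicle release had 18 of 20 higher and a median of 0.24, which stayed between 0.14 and 0.36 when any 1 library was left out. Stx1a, syntaxin 1A, did not overlap, at 93.3, 136.0 and 149.6 CPM against 83.0, 84.4, 89.1 and 55.3 CPM (0.70, SE 0.32; edgeR adjusted p = 1.00). Syn1, synapsin 1, was at 619.6 to 1017 CPM against 405.7 to 631.6 CPM (0.49, SE 0.28). Ventral control 4 had the lowest score of this list, -0.37, against -0.05 to 0.00 in the other controls. The 22 glutamate receptor genes had 13 higher and a median of 0.07, and the 13 GABA-A receptor genes 8 lower and a median of -0.07. Gabrq, the theta subunit, was the 1 of these receptor genes with an unadjusted p under 0.05 in edgeR, where 4.07% of all tested genes had one. It was at 0 to 0.86 CPM against 0.55 to 4.82 CPM. Drd1, a dopamine receptor from the striatum and amygdala list, was at 21.5, 1.66 and 15.2 CPM against 1.99 to 5.63 CPM (1.78, SE 0.70).

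Housekeeping and stress lists showed modest balances. Of 20 chaperone genes, 17 were lower, with a median of -0.13. Hspa5, the chaperone of the endoplasmic reticulum, was at 114.5, 207.1 and 172.0 CPM in knockdown and 193.3, 223.1, 280.7 and 417.2 CPM in control (-0.76, SE 0.27; edgeR adjusted p = 1.00). Cytosolic ribosomal protein genes had 52 of 70 higher and a median of 0.12, and -0.32 without ventral knockdown 3, whose score was 0.75. Oxidative phosphorylation genes had 34 of 46 higher and a median of 0.16, and -0.22 without the same library. Genes of cholesterol synthesis had 17 of 30 higher and a median of 0.03. Of the 41 lists with at least 3 tested genes, 25 had a median above 0 and 16 below, and 14 kept their sign whichever of the 7 libraries was left out.

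The ventral difference was also set against the dorsal one in the same fit, with 4 dorsal knockdown and 3 dorsal control libraries of over 1000000 gene reads. The interaction contrast, ventral minus dorsal difference, called 0 genes in edgeR at an adjusted p under 0.05 (0%), and 672 genes (4.61%) had an unadjusted p under 0.05. DESeq2 called 9. The dorsal comparison by itself also called 0 genes in edgeR, with 667 (4.58%) at an unadjusted p under 0.05.

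The 3 smallest interaction p-values in edgeR were those of Prph, Wfs1 and Pld5. Prph was at 0.43 to 3.11 CPM in dorsal knockdown and 5.12 to 10.7 CPM in dorsal control, the reverse of its ventral order (interaction 6.28, SE 1.10; adjusted p = 0.499). Wfs1 was at 86.5 to 144.4 CPM in dorsal knockdown and 150.6 to 313.8 CPM in dorsal control, also the reverse (3.30, SE 0.60; edgeR adjusted p = 0.499). For Pld5 the interaction was -3.47 (SE 0.67; edgeR adjusted p = 0.639). DESeq2 called all 3. Without ventral knockdown 3 edgeR called Prph and Unc13c, a presynaptic priming protein at 114.0, 6.23 and 132.8 CPM in ventral knockdown 2, 3 and 4 and 15.1 to 33.6 CPM in ventral control. Without ventral control 1 it called Pld5.

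Of the interferon-stimulated genes, all 32 were higher in dorsal knockdown than in dorsal control (median 2.35), and 23 of 32 had an unadjusted interaction p under 0.05 against 4.61% of all genes, with 0 past adjustment in edgeR. The list score of dorsal knockdown 1 was -0.83, among the dorsal controls (-0.97 to -0.47), and that of dorsal knockdown 2, 3 and 4 was 0.81 to 2.89. Dorsal medians of microglial (0.82), reactive astrocyte (2.16) and lymphocyte genes (5.51, 3 tested) moved with it, and their part was not tested. Isg15 was at 0.71 to 49.4 CPM in dorsal knockdown and 0.42 to 2.00 CPM in dorsal control. Its interaction was -6.60 (SE 2.22; edgeR adjusted p = 1.00). The ventral side of this contrast included ventral control 2. Immediate early genes had a dorsal median of 0.94 against 0.01 in the ventral libraries, and 6 of 33 had an unadjusted interaction p under 0.05. Fos reached 401.9 CPM in 1 dorsal knockdown library and stood at 2.04 CPM in another, a spread wider than the whole ventral range of 6.02 to 36.3 CPM.

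**Figure D4:**
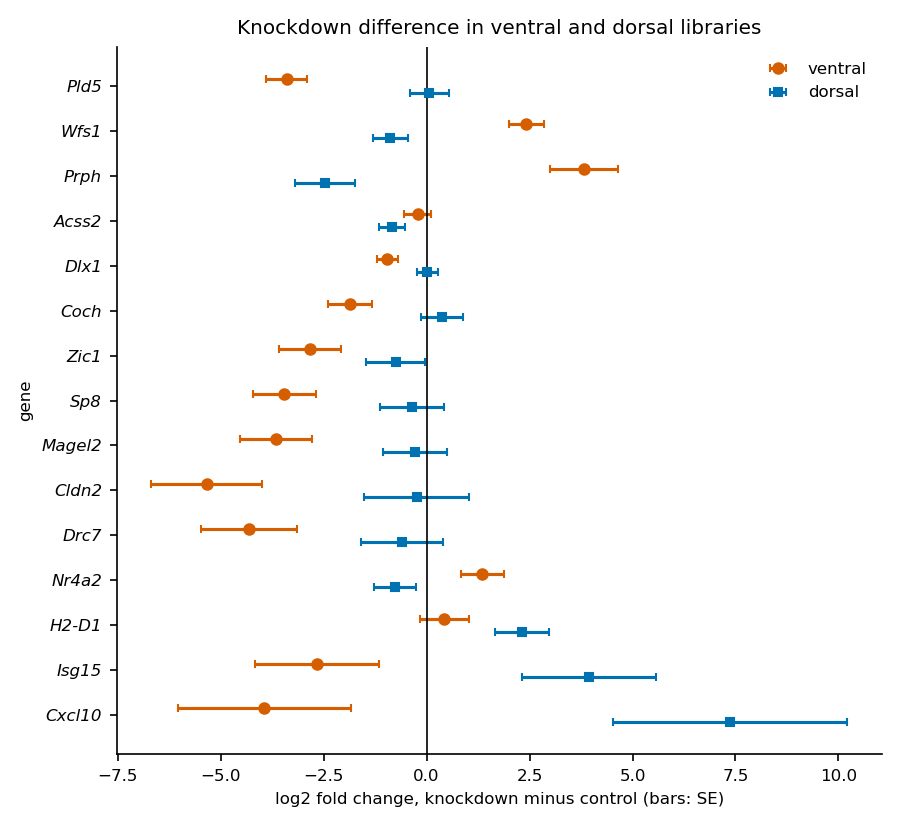
Log2 fold change, knockdown minus control, of 15 genes in ventral (circles) and dorsal (squares) libraries, with bars of 1 SE from the edgeR fit. Wfs1 and Prph have opposite signs in the regions (2.42 and -0.88; 3.81 and -2.47), and Pld5 is near 0 in the dorsal libraries (0.07).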

How the data were processed

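RNA was sequenced from 21 hippocampal samples after a directional library preparation, per the labels' protocols. The authors deposited a table of raw read counts per gene. Reads were aligned with STAR 2.5.2a to mm10 and counted with HTSeq 0.6.1p1, per the submitters' processing notes; its strand setting is not stated. The 5 summary lines of the table, 39.0% to 59.2% of the column totals of the 7 ventral libraries, were left out, and 0 columns of per-sample values were unused.

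Libraries of over 1000000 gene reads were kept. The 14 ethanol libraries of a labelled region entered 1 quasi-likelihood fit with 4 group means in edgeR 4.0.16 (R 4.3.3, limma 3.58.1), with TMM scaling, the filterByExpr minimum of 10 counts and Benjamini-Hochberg adjustment over all tested genes. The code was tested on simulated data. DESeq2 1.42.0, RLE scaling, no filter, other sets of libraries, a replicate block and leaving out each library were tried as alternatives. Python 3.11.15 drew the figures.

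Named genes were Acss2 and the acetyl-CoA supply list; the 12 highest and 12 lowest fold changes among non-overlapping genes with an unadjusted p under 0.05 and a mean of at least 5 CPM; up to 3 members each way per list; the 8 genes farthest above the rest in each library; up to 10 genes called when 1 library is left out; and called genes or the 3 smallest p-values of the interaction. Fos, Foxj1, Npas4, Prox1 and Unc13c fall outside this rule and were picked with their values known. Some genes that the rule selects are not reported here. The comparison and all 42 gene lists were chosen with earlier results of these data known. Gene positions are from the GENCODE M21 annotation of mm10, and promoters from RefSeq.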

Additional observations from a re-analysis of the deposited data

Results flagged for a closer look

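In the 4 ventral controls, 66 sets of values were examined: list scores and only part of the named genes. The search was for a library whose gap to the nearest of the other 3 exceeded Dixon's critical value of 0.829 of the range. Chance gives about 1 in 20 such sets, or 3.3 of 66, and 14 were found. That rate does not hold here: sets that share a library or a cell type are not independent. In addition, 8 of the 14 are genes named for a low fold change without overlap, a choice that favours a control far from the others.

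Ventral control 4 stood apart in 7 genes, most of them of motile cilia: Cldn2 at 60.8 CPM, Drc7 at 90.9 CPM, Dnah6 at 60.4 CPM, Dnah11 at 28.3 CPM, Lrrc23 at 31.9 CPM, Ak7 at 35.1 CPM and Cfap43 at 27.5 CPM. Its ependymal score of 2.20 lay far above the other controls, and its synaptic vesicle score of -0.37 lay below them. Among the examined genes, ventral control 1 stood apart in Pld5, at 5.25 CPM, the lowest control. It was also the lowest in the scores of the immediate early genes (-0.68), the phospholipase D family (-0.57) and the striatum and amygdala markers (-0.37). Ventral control 2 had the highest neocortex score, 0.51.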

How the results depend on the processing

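Against 0 calls in the ventral comparison, 1 gene was called with 20 libraries or with ventral knockdown 1 added, 35 with DESeq2, and 0 to 8 when 1 library was left out. At an unadjusted p under 0.05, only the 7 ventral libraries gave 135 higher and 219 lower genes. Leaving out 1 library gave 142 (without ventral knockdown 4) to 574 (without ventral knockdown 3) higher and 176 (without ventral control 4) to 490 lower. The interaction had 1 call with 20 libraries, 9 with DESeq2 and 0 to 2 when 1 library was left out, with 461 to 1099 genes at an unadjusted p under 0.05. Acss2 ran from -0.60 to 0.0052, the value without ventral knockdown 2, which lay next to 0. The cause of these shifts was not tested.

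Log2 fold changes that changed sign when 1 library was left out had these ranges over the 7 fits. Without ventral knockdown 2 the sign turned for Npy (-0.98 to 2.84), H2-D1 (-0.13 to 1.03) and Aldh2 (0.21 without it; -0.33 to 0.36 in all, the last without ventral control 4). Without ventral knockdown 3 it turned for Bok (-1.63 to 0.71), Lefty1 (-0.67 to 2.03) and Hpca (-1.23 to 0.90), and without ventral knockdown 4 for Hdac5 (-0.14 to 0.57) and Fmod (-1.43 to 2.61). Without ventral control 1 it turned for Dcn (-2.13 to 0.40), Bok (-0.04) and Acss1 (-0.05; -0.071 to 0.24 in all, the first without ventral control 3). Without ventral control 2 it turned for Isg15 (-3.08 to 1.06), Ifit1 (-2.74 to 0.75), Cxcl10 (-6.97 to 2.61) and Irf7 (-2.44 to 1.39). With 20 libraries Acss1 was at -0.0021.

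Whether the replicate numbers pair the libraries is not stated in the labels. The correlations of deviations between same-numbered ventral knockdown and ventral control libraries were 0.22, -0.05 and 0.19 for numbers 2, 3 and 4. Those of unlike numbers ran from -0.45 to 0.33, and so few pairs cannot decide it. Whether same-numbered dorsal and ventral libraries of an arm share an animal was not examined. The main fit and its interaction contrast treat them as independent. With a replicate block edgeR called 0 genes in either contrast, with 188 higher and 349 lower at an unadjusted p under 0.05 and 730 in the interaction. Under the block Acss2 was at -0.14, Acss1 at -0.0041 and Bok at -0.17, and 17 of 41 list medians lay below 0, against 16. Gene reads down to 3503465 in a library limit the precision of genes of low CPM.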
